A study of Mus musculus with 36 samples.

Results

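The 10 genes described here encode interferon-inducible GTPases of the mouse, 7 guanylate-binding proteins (Gbp2, Gbp3, Gbp4, Gbp5, Gbp6, Gbp7 and Gbp8) and 3 immunity-related GTPases of the regulatory class (Irgm1, Irgm2 and Igtp, the last also known as Irgm3). They were taken by gene symbol from the RNA-seq table of CD4+ T cells, which lists 56748 genes and held all 10. Gene expression was measured in 12 groups of 3 libraries, formed by 2 mouse lines, 2 genotypes and 3 conditions, and HP1g KO Tconv with Treg kept 2 libraries after removal of replicate 3 on sequencing quality, which left 35 of the 36 libraries. The questions asked of these genes are whether they differed between T cells with and without each HP1 protein, between Tconv recovered with and without regulatory T cells, and between naive and recovered cells.

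In the HP1a line a floxed Hp1a allele had been excised in the germ line with CMV-cre, so that every cell of the HP1a KO donors lacked it, and HP1a WT cells came from +/+ littermates. In the HP1g line a floxed Hp1g allele was excised in T cells with Cd4-cre, and HP1g WT cells came from floxed littermates without Cre. Donors were sex-matched mice of 6 to 12 weeks on a mixed 129/Sv and C57BL/6 background. Naive cells were CD62L+ CD44 low CD4+ T cells of the spleen, purified from untreated donors. Tconv were such cells 3 weeks after transfer into lethally irradiated B6 hosts with a mix of B6 and B6D2F1 bone marrow, sorted from the spleen as Vβ6+ CD4+ cells of the donor, a receptor chain that binds a superantigen carried by the B6D2F1 marrow. Tconv with Treg came from hosts that had also received ex vivo expanded WT regulatory T cells. These carried Thy1.1, and the sort of Tconv left Thy1.1+ cells out. The paper also reports that some Tconv themselves came to make Foxp3, the transcription factor of Treg. Treg were given at various ratios. At the ratio used with the HP1g line the paper describes the response of WT cells as not effectively repressed. Where the lines are compared with Treg, line and ratio cannot be told apart. No source used here says whether the libraries of a group came from separate mice or from pools, so p-values measure only the spread between these libraries, which may be technical.

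Guanylate-binding proteins and immunity-related GTPases are made in most cells in response to interferons. They assemble on membranes around intracellular bacteria and parasites and help to break these open or to alert the inflammasome. The regulatory immunity-related GTPases sit on the cell's own membranes and hold the effector GTPases of their family inactive there, and mice without Irgm1 lose CD4+ T cells when interferon-γ is produced. Interferon-γ acts through the gamma-activated sequence (GAS), and type I interferon and the IRF factors act through the interferon-stimulated response element (ISRE).

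On GRCm39 the genes lie in 4 places. Gbp5, Gbp7, Gbp3 and Gbp2 follow each other on the + strand of chromosome 3, from position 142199739 at the start of Gbp5 to 142343779 at the end of Gbp2. Gbp8, Gbp4 and Gbp6 lie on the - strand of chromosome 5, from 105162016 to 105443751. Irgm1 lies on the - strand of chromosome 11, from 48752795 to 48763164, and Igtp and Irgm2 overlap on its + strand, from 58089840 to 58113615. All 10 are annotated as protein-coding. Some of these genes resemble each other closely, which bears on how reads were divided between them: 66.4% of the 31-base stretches of the Gbp6 transcripts also occur in transcripts of other genes, 57.5% in Gbp10. The share was 24.9% for Gbp8 and between 2.1% (Irgm1) and 13.5% (Gbp7) for the other 8. Counts of Gbp6 and Gbp8 are therefore the least certain, since the counting had to divide such reads between genes. Gbp4 and Gbp8 overlap on the same strand, as do Igtp and Irgm2.

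The promoter sequences of 7 members were at hand, 8 windows in all since Gbp3 has 2 starts, each of 250 bases before and 50 after the start (RefSeq, GRCm38.p6). They are shown because the motifs through which interferons act are what these genes are known to share. The ISRE was searched as a pair of GAAA separated by any 2 bases and the GAS as TTCNNNGAA, on both strands, with overlaps allowed. An ISRE was present in 7 of the 8 windows and in each of the 7 genes, against 3.44% of all 32851 promoters of the same length. A GAS was present in 4 windows (Gbp5, Gbp7, Igtp and Irgm2), against 8.3% of all promoters, and the same 4 held both motifs, against 0.454%. Gbp4, Gbp6 and Gbp8 were not matched. Capitals mark the motif letters, each sequence is written 5′ to 3′ in the direction of its gene, and the stretches are chr3:142620589-142620628 (+) for Gbp2, chr3:142559984-142560029 (+) for Gbp3, chr3:142496754-142496793 (+) for Gbp5, chr3:142530215-142530307 (+) for Gbp7, chr11:48871420-48871465 (-) for Irgm1, chr11:58199496-58199546 (+) for Igtp and chr11:58214887-58214937 (+) for Irgm2.
Gbp2: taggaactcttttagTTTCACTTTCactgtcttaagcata
Gbp3: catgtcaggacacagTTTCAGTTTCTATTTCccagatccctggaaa
Gbp5: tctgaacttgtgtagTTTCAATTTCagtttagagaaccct
Gbp7: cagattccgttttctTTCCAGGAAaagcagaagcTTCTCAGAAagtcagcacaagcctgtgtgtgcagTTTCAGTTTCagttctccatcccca
Irgm1: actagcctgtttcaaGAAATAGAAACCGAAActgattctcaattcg
Igtp: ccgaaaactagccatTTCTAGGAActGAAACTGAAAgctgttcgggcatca
Irgm2: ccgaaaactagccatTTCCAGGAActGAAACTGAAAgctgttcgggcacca

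The ISRE nearest to the start began 24 to 165 bases before it. Gbp3 and Irgm1 each had 2 overlapping ISRE matches. The GAS matches of Gbp5, 245 and 52 bases before the start, lie outside the stretch shown. In Igtp and Irgm2 a GAS stood closely before the ISRE, and 49 of the 51 bases of the 2 stretches shown were identical. A match of letters describes these windows and does not show binding.

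The 35 libraries held 37029519 to 63042245 estimated counts each, and levels are given as CPM, the counts of a gene as a share of the normalised library size. The lowest level of any member in any library was 8.23 CPM (Gbp5), far above the 0.0446 to 0.0816 CPM to which 3 counts correspond, so every member was measured in every library and passed the filter on low counts in every comparison. All 8 markers of CD4+ T cells were present, with Cd4 at 632 to 1350 CPM and Cd3e at 788 to 1640 CPM. Of 4 markers of CD8+ T or NK cells, Cd8a and Ncr1 did not exceed 1.64 and 1.22 CPM, while Cd8b1 ranged from 3.25 to 30.2 CPM and Klrb1c from 0.0 to 21.4 CPM. Transcripts of the targeted genes were lower in KO cells without being absent. For the proteins the paper reports no HP1α in naive HP1a KO cells and a nearly full loss of HP1γ in naive HP1g KO cells. Cbx5, which encodes HP1α, was at 9.25 to 12.2 CPM in naive HP1a KO and 18.6 to 24.7 CPM in naive HP1a WT cells, and no KO library reached a WT library in any condition. Cbx3, which encodes HP1γ, was at 65.0 to 80.8 CPM in naive HP1g KO and 106 to 200 CPM in naive HP1g WT cells, and the groups were likewise apart in each condition. With edgeR's quasi-likelihood test neither passed an adjusted p under 0.05 together with a log2 fold change beyond 1 in any of the 6 comparisons of KO with WT, the rule for a call used throughout, although Cbx5 in HP1a Tconv had an adjusted p of 0.0331 at a log2 fold change of -0.89. DESeq2 called 2 of the 6.

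Per kilobase of exon, Igtp was the highest member in naive cells, with a mean of 49.2 CPM per kilobase, followed by Gbp2 at 30.5. Gbp7 (24.0), Irgm1 (23.9), Gbp4 (22.6) and Gbp8 (22.6) came next, and their ranges over the 12 naive libraries overlapped, as did those of Igtp and Gbp2. Gbp6 (15.1) and Irgm2 (10.2) were lower and also overlapped. Gbp3, at 2.88, and Gbp5, at 1.60, were lowest and apart from all others, their highest library standing at 3.79 and 2.22 CPM per kilobase and the lowest Irgm2 library at 5.91. In the 23 libraries of transferred cells Igtp, Gbp2 and Gbp7 led with means of 54.4, 46.3 and 43.2 CPM per kilobase, and Gbp3 reached 17.3, between Irgm1 at 20.0 and Irgm2 at 8.03. Gbp5 stayed lowest, at 2.82.

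**Figure D1:**
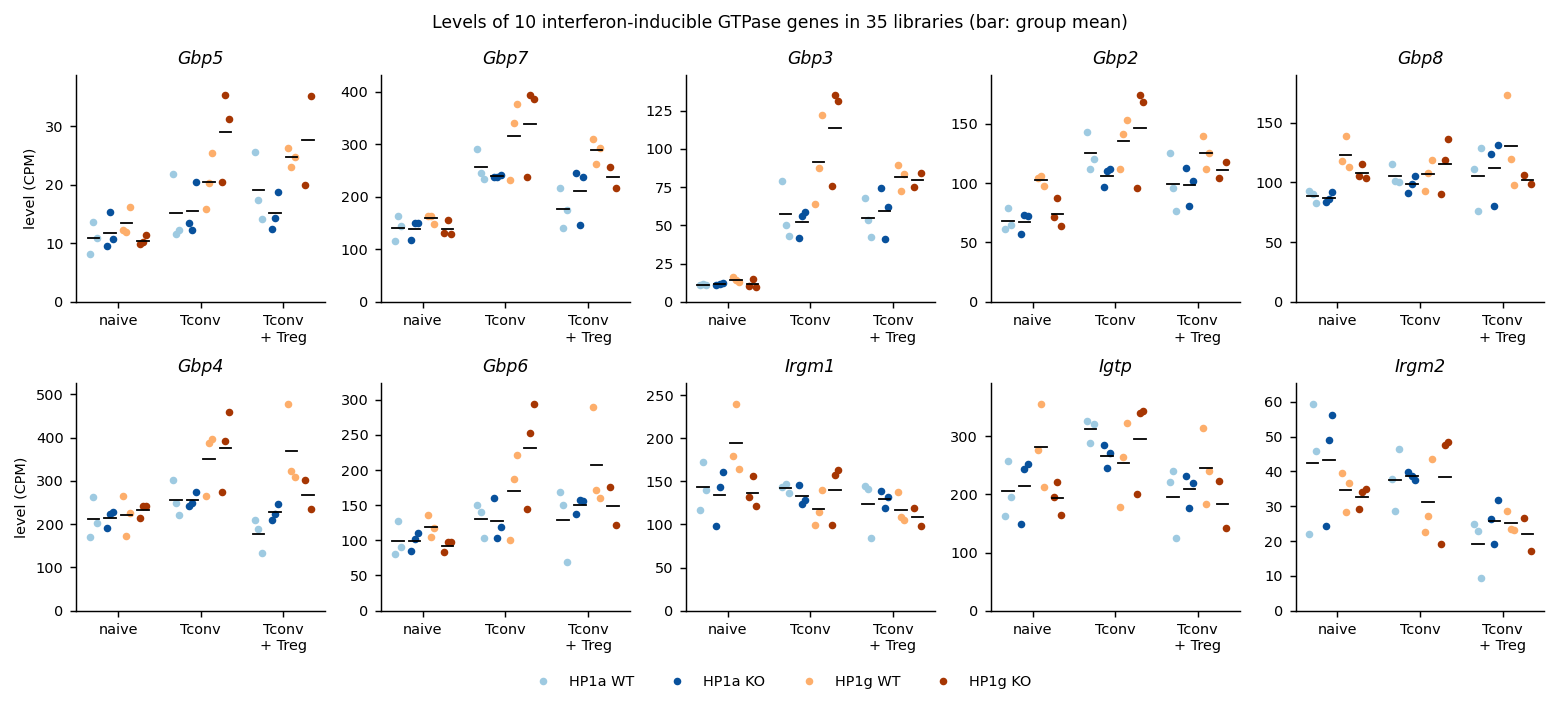
Level of each of the 10 genes in CPM (linear axis from 0) in the 35 libraries, by condition, line and genotype; each point is a library and each bar the mean of a group. Gbp3 lies between 10.0 and 16.1 CPM in the naive libraries and between 40.8 and 135 CPM in the transferred cells, while the ranges of every other gene overlap between naive and transferred cells.

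Tconv against naive cells was the comparison in which these genes differed. Gbp3 rose in both genotypes of both lines, by 4.58-fold to 9.85-fold. Gbp7 rose in the same 4 comparisons by 1.75-fold to 2.50-fold, and Gbp2 in 3 of them, while Gbp8 and Irgm2 passed the test in none. Among the regulatory GTPases Igtp rose in HP1a WT and HP1g KO cells and Irgm1 fell in HP1g WT cells, while the difference between these genes was not tested. Tconv differed from naive cells in the transfer, the irradiated host, the exposure to the B6D2F1 marrow and its superantigen, and the time elapsed. They also differed in the purification, by negative selection for naive cells and by positive selection and the Vβ6 sort for Tconv. These differences cannot be told apart here. In bulk samples fewer cells of a type and less RNA per cell cannot be told apart either.

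For HP1a WT cells 1 of the 10 members, Gbp3, was called higher and none lower, while 12.9% of all 16027 genes tested were called higher and 10.2% lower. By the adjusted p alone 4 members were higher (Gbp3, Gbp2, Gbp7 and Igtp) and none lower, against 24.3% and 21.4% of all genes. For HP1a KO cells Gbp3 was again the single call, with a background of 12.4% higher and 7.24% lower, and 4 members were higher by the adjusted p alone (Gbp3, Gbp2, Gbp7 and Gbp4), against 22.9% of all genes higher and 17.8% lower. For HP1g WT cells the call was Gbp3, with 15% of all genes higher and 8.55% lower, and by the adjusted p alone Gbp3 and Gbp7 were higher and Irgm1 lower, against 18.3% and 13.2%. For HP1g KO cells 5 members were called higher (Gbp3, Gbp5, Gbp6, Gbp7 and Gbp2), with a background of 15.7% higher and 7.3% lower, and by the adjusted p alone 7 were higher, Gbp4 and Igtp being added, against 23.4% and 17.7%. The counts of the first 3 comparisons thus did not exceed the background of calls, and the median log2 fold change of the members was 0.45, 0.35 and 0.45 there and 0.86 in HP1g KO cells, beside medians of -0.04 to 0.02 over all genes tested.

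Gbp3, a guanylate-binding protein of the chromosome 3 cluster, was at 10.9, 11.4 and 10.9 CPM in naive HP1a WT cells and at 78.9, 50.4 and 43.3 CPM in HP1a WT Tconv. In the HP1g line naive WT cells had 16.1, 14.2 and 13.2 CPM and WT Tconv 63.9, 87.2 and 122 CPM. No naive library came near a Tconv library, in KO as in WT cells, where the naive HP1g KO values were 10.3, 15 and 10.0 CPM and those of Tconv 75.5, 135 and 131 CPM. The log2 fold change was 2.39 (SE 0.218, adjusted p = 6.69e-05) in HP1a WT, 2.20 (SE 0.147, adjusted p = 4.59e-05) in HP1a KO, 2.65 (SE 0.257, adjusted p = 0.000205) in HP1g WT and 3.30 (SE 0.267, adjusted p = 7.82e-05) in HP1g KO cells, in the quasi-likelihood fit of edgeR after Benjamini-Hochberg adjustment. Gbp3 was called with any single library left out, in all 4 groups of cells.

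Gbp7, its neighbour, rose from 115, 163 and 144 CPM in naive HP1a WT cells to 290, 245 and 233 CPM in Tconv, a log2 fold change of 0.87 (95% interval 0.55 to 1.19). In HP1g KO cells it rose from 131, 155 and 129 CPM to 238, 393 and 386 CPM, a log2 fold change of 1.32 (0.88 to 1.76). Every Tconv library stood above every naive library of its group in these comparisons. Gbp2, which coats the vacuole of Toxoplasma, was at 61.4, 78.6 and 65.1 CPM in naive and 143, 112 and 120 CPM in Tconv of HP1a WT. The log2 fold changes of Gbp2 were 0.88, 0.68, 0.40 and 1.01 in HP1a WT, HP1a KO, HP1g WT and HP1g KO cells, of which that of HP1g WT did not pass (adjusted p = 0.104 by edgeR's quasi-likelihood test). Gbp2 started higher in naive HP1g WT cells than in the other naive groups, at 104, 106 and 97.3 CPM. Its call in HP1g KO, at a log2 fold change of 1.01 close to the threshold, was kept in 2 of the 6 fits without a library. It was lost with DESeq2, with RLE size factors, with all libraries of the line and with the replicate block, which left 4 called members in HP1g KO, and was kept without the filter on low counts.

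Gbp5, which has been linked to inflammasome activation, and Gbp6 of the chromosome 5 cluster passed the test in HP1g KO cells alone among the 4 comparisons. Gbp5 was at 9.80, 10.2 and 11.4 CPM in naive and 20.4, 35.3 and 31.3 CPM in Tconv of HP1g KO, a log2 fold change of 1.49 (95% interval 1.01 to 1.97). Gbp6 was at 82.7, 97.0 and 97.6 CPM in naive and 145, 253 and 294 CPM in Tconv, a log2 fold change of 1.34 (0.78 to 1.91). In the other 3 comparisons Gbp5 had log2 fold changes of 0.41 to 0.61 and Gbp6 of 0.38 to 0.50, and the groups overlapped for both genes. Whether the KO cells differed from the WT cells in this respect was tested as an interaction, added after the values were seen. No member was called in the HP1g line, where 0.0235% of 17024 genes were called, or in the HP1a line, where 0.00587% of 17038 were. In the HP1g line the interaction had an unadjusted p under 0.05 for 2 members, Gbp5 (0.91, 95% interval 0.21 to 1.61) and Irgm1 (0.81, 0.15 to 1.46), with adjusted p-values of 0.56 and 0.599, and in the HP1a line for none. DESeq2 called none in either line. A difference between HP1g KO and HP1g WT cells in the response of single members was therefore not shown.

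Gbp4 rose by 0.27 in HP1a KO and 0.71 in HP1g KO cells on the log2 scale, but passed in none of the 6 fits that left out a library of HP1a KO and in 4 of the 6 of HP1g KO, not without replicate 1 or 2 of the naive cells. In WT cells its log2 fold changes were close to these, 0.29 in the HP1a and 0.66 in the HP1g line, and neither passed. That of HP1g WT passed with DESeq2 and in the fit of all libraries of the line. Gbp8 had log2 fold changes of -0.21 to 0.26, none of which passed, and its 95% intervals lay between -0.59 and 0.47 in all 4 comparisons. Irgm1, the regulator needed for CD4+ T cell survival, was at 179, 240 and 164 CPM in naive and 99.1, 115 and 140 CPM in Tconv of HP1g WT, groups that did not overlap, and fell by 0.72 on the log2 scale (adjusted p = 0.0327 by edgeR's quasi-likelihood test). In the other 3 groups of cells its log2 fold change was -0.01, 0.00 and 0.06. That of Irgm2, a Golgi-associated regulator, was -0.17 to 0.25 and passed in none. Igtp, a regulator on the endoplasmic reticulum needed for resistance to Toxoplasma, rose by 0.61 in HP1a WT, from 163, 258 and 196 CPM to 327, 289 and 321 CPM, and by 0.63 in HP1g KO cells. With 1 library left out, Igtp in HP1g KO lost its adjusted p under 0.05 in 5 of 6 fits, all but that without replicate 1 of Tconv. Irgm1 in HP1g WT lost it in 3 of 6, without replicate 1 or 2 of Tconv or replicate 1 of the naive cells, with log2 fold changes of -0.86 to -0.53 over all 6. Without replicate 1 of HP1g KO Tconv, Irgm2 passed with a log2 fold change of 0.57 and Gbp8 with 0.26, and without replicate 1 of naive HP1a KO cells Irgm2 passed with -0.43. Without replicate 1 of HP1g WT Tconv, Gbp4 (0.83) and Gbp6 (0.77) passed as well, and without replicate 2 of naive HP1a WT cells Gbp4 (0.46) and Gbp6 (0.61). Gbp8 passed in HP1a WT, with 0.29, without replicate 1 of the naive cells.

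**Figure D2:**
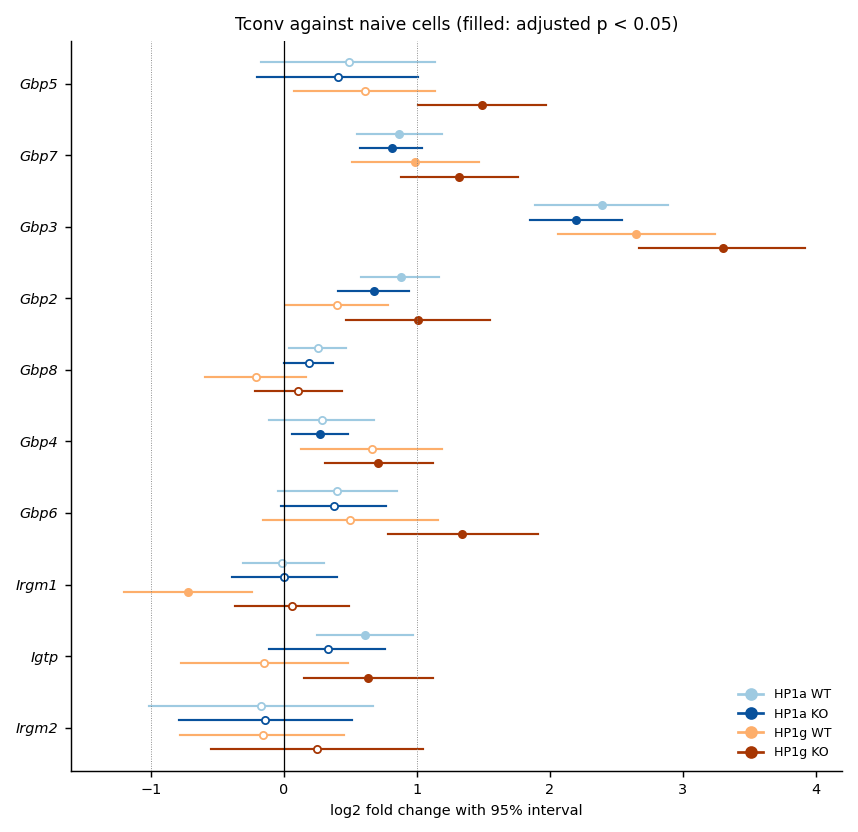
Log2 fold change of each gene between Tconv and naive cells (x axis) with its 95% interval, for the 2 genotypes of the 2 lines; filled points have an adjusted p under 0.05 and dotted lines mark a log2 fold change of 1 in either direction. The 4 points of Gbp3 lie between 2.20 and 3.30, and those of Irgm2 and Gbp8 between -0.21 and 0.26.

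Other interferon-inducible GTPases were compared from a list of 14 further genes, of which 13 were tested in Tconv against naive cells. Of these 5 were called higher in HP1a WT, 5 in HP1a KO, 4 in HP1g WT and 7 in HP1g KO cells, and 1 was called lower, in HP1g WT. Mx1 rose from 0.203 to 1.13 CPM in naive cells of HP1a WT to 19.3 to 19.8 CPM in Tconv, and its log2 fold changes in the 4 groups of cells were between 4.99 and 6.07. F830016B08Rik and Gm4951 were called in all 4 as well, from group means of 0.00621 to 0.129 CPM and 0.045 to 0.262 CPM in naive cells to 1.46 to 11.1 CPM and 3.15 to 5.42 CPM in Tconv, and no fold is given because naive levels lay near 3 counts. Gvin1, a very large inducible GTPase, rose by 1.77 to 2.66. The gene called lower in HP1g WT was the effector Tgtp1, with a log2 fold change of -1.5, named after its value was seen.

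The genes of interferon-γ signalling around the members were looked at from a list of 18. Ifng, which encodes the cytokine, was at 0.0 to 0.386 CPM in naive libraries and at 105 to 664 CPM in all libraries of transferred cells. Ifngr1, the ligand-binding receptor chain, rose between naive cells and Tconv by 1.5 to 2.18 on the log2 scale, and Ifngr2, the signalling chain, fell by 1.85 to 5.49. Irf1, a transcription factor induced by interferon-γ, had log2 fold changes of -0.38 to -0.24 and passed the adjusted p in HP1g KO cells, with -0.37. Socs1, the feedback inhibitor, rose in both WT groups by 0.78 and 0.80. In full, 3, 3, 6 and 3 of the 18 genes were called higher in HP1a WT, HP1a KO, HP1g WT and HP1g KO cells and 1, 1, 2 and 1 lower. Irf8, a transcription factor of the IRF family, was called higher in each, with log2 fold changes of 1.37, 1.74, 1.94 and 2.29. In HP1g WT cells the kinase Tyk2 (1.27) and the feedback inhibitor Socs3 (1.27) were also called higher and Usp18 (-1.46), an inhibitor of type I interferon signalling, lower. Among 17 other targets of interferon-γ 2, 1, 2 and 3 were called higher, Cxcl10, a chemokine, in each with log2 fold changes of 2.95 to 3.38, and none lower. Psmb8, a subunit of the immunoproteasome, was called in HP1a WT (1.05), and Cd274, which encodes PD-L1, in HP1g WT (1.6) and HP1g KO (1.58). Ido1 was called in HP1g KO, where all naive libraries were at 0 and the mean of Tconv was 0.57 CPM.

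**Figure D3:**
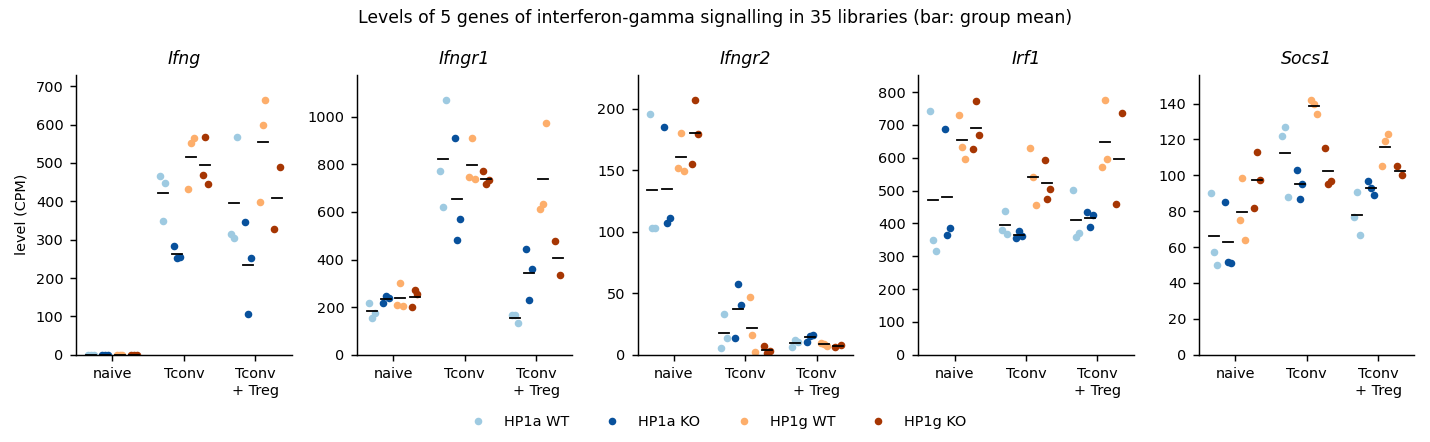
Level in CPM (linear axis from 0) of 5 genes of interferon-γ signalling in the 35 libraries, by condition, line and genotype; each point is a library and each bar the mean of a group. Ifng is at most 0.386 CPM in naive cells and at least 105 CPM in transferred cells, whereas Irf1 overlaps between the 3 conditions.

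Between KO and WT cells none of the members was called in any of the 6 comparisons by edgeR's quasi-likelihood test or by DESeq2. Over all genes tested edgeR's test called 0.0% in naive HP1a cells, 0.103% in HP1a Tconv and 0.123% in HP1a Tconv with Treg. In the HP1g line it called 0.00669% in naive cells, 0.0437% in Tconv and 0.0% in Tconv with Treg. Shares for DESeq2 are not given. The paper used DESeq2 at the same thresholds and reported more differing genes than these in HP1a Tconv and, with Treg, in both lines. An unadjusted p under 0.05 was found for 0, 1 and 0 members in the HP1a line and for 3, 0 and 0 in the HP1g line, in the same order of conditions. The share of all genes at that p is not given, so these counts are not read as an excess. The log2 fold changes lay between -0.34 and 0.41 in the HP1a and between -0.52 and 0.51 in the HP1g line. In HP1a Tconv and in naive HP1g cells the 95% intervals of all 10 members were within 1 log2 unit of no change, and in HP1g Tconv those of 6.

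In naive HP1g cells 9 of the 10 members were lower in KO, with a median log2 fold change of -0.32 beside 0.02 over all genes tested. Gbp2 was at 104, 106 and 97.3 CPM in WT and at 71.1, 87.1 and 63.5 CPM in KO, a log2 fold change of -0.46 (95% interval -0.80 to -0.11, adjusted p = 0.63 by edgeR's quasi-likelihood test). Irgm1 was at 179, 240 and 164 CPM in WT and at 132, 156 and 121 CPM in KO, a log2 fold change of -0.49. The groups did not overlap for these genes, nor for Gbp5 (-0.34) and Gbp6 (-0.36), 4 of 10 members in all, while they did not overlap for 17.4% of the 14939 genes tested, and no member passed. Igtp, with 276, 356 and 213 CPM against 195, 221 and 165 CPM, overlapped. In HP1g Tconv all 10 members had a positive log2 fold change, with a median of 0.24, and in HP1g Tconv with Treg 9 of 10 had a negative one, with a median of -0.23. Since the members varied together from library to library, as described with the deviations, these shared signs are not 10 separate observations. In the HP1a line the members were higher in KO in 5 of 10 cases in naive cells, 2 in Tconv and 8 in Tconv with Treg, with medians of 0.0, -0.09 and 0.09. Igtp in HP1a Tconv, with a log2 fold change of -0.23, was the member with an unadjusted p under 0.05. No gene of the signalling list was called between KO and WT cells. Ifng in HP1a Tconv was at 252 to 283 CPM in KO and 349 to 467 CPM in WT libraries. Its log2 fold change was -0.68 (adjusted p = 0.185 by edgeR's quasi-likelihood test). Ifngr1 in HP1a Tconv with Treg was at 230 to 446 CPM in KO and 135 to 166 CPM in WT libraries. Its log2 fold change was 1.13 (adjusted p = 0.131 by the same test). In HP1a Tconv with Treg the summed level of 10 myeloid markers was 178 to 589 CPM in KO and 26.6 to 74.9 CPM in WT libraries, that of 6 erythroid markers 112 to 703 and 2.66 to 50 CPM, and that of 5 Treg markers 315 to 490 and 716 to 944 CPM. All 3 sums differed without overlap, and their part in the values of the members was not tested.

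Co-injected Treg were followed by no call among the members, by edgeR's quasi-likelihood test or by DESeq2, in any of the 4 groups of cells. The background by edgeR's test was 5.96% of 15627 genes in HP1a WT, 0.44% in HP1a KO, 0.0126% in HP1g WT and 0.0% in HP1g KO cells. An unadjusted p under 0.05 was found for 4, 2, 0 and 0 members. The share of all genes at that p is not given, so no excess is read from these counts. In HP1a WT cells the members at that p were Irgm2 (-0.96), Igtp (-0.66), Gbp4 (-0.52) and Gbp7 (-0.51, log2 fold changes), with adjusted p-values of 0.157 to 0.186. Irgm2 was at 37.7, 28.7 and 46.4 CPM without and 25.0, 23.0 and 9.45 CPM with Treg, and Igtp at 327, 289 and 321 CPM without and 221, 240 and 125 CPM with Treg. The groups were apart for these and for Gbp4 and Gbp7, 4 of 10 members, as for 34.4% of all genes tested in this comparison, and replicate 3 with Treg was the lowest for Irgm2 and Igtp. Without this library Igtp had a log2 fold change of -0.44 and passed the adjusted p (0.0202, edgeR's quasi-likelihood test), though not the threshold on the fold change. In HP1a KO cells the same 2 regulators had the lowest p-values: Irgm2 was at 39.9, 38.6 and 37.5 CPM without and 26.3, 19.2 and 31.7 CPM with Treg (log2 fold change -0.58, adjusted p = 0.184), and Igtp at 285, 245 and 271 CPM without and 232, 177 and 219 CPM with Treg (-0.34, adjusted p = 0.223). These were the 2 of 10 members without overlap, against 22.6% of all genes tested. Neither passed, and Irgm2 shares 10.2% of its 31-base stretches with Igtp, so the pair is not independent. DESeq2 gave Irgm2 an adjusted p under 0.05 in HP1a KO cells, with the same log2 fold change of -0.58.

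In HP1g KO cells all 10 members had a negative log2 fold change with Treg, between -0.79 (Irgm2) and -0.05 (Gbp5), and in HP1g WT cells between -0.31 and 0.29. The intervals in HP1g KO, where 2 libraries faced 3, reached from -1.88 to 0.74, and only 3 of the 10 lay within 1 log2 unit. Tests of the differences between these effects called no member, with either tool, and the backgrounds given are those of edgeR's test. For the interaction of genotype and Treg it was 0.139% of 17205 genes in the HP1a line and 0.0% of 17833 in the HP1g line. No member had an unadjusted p under 0.05 there. In the HP1g line all 10 log2 fold changes of the interaction were negative, with a median of -0.43 beside -0.03 over all genes tested. Their 95% intervals reached from -2.17 to 0.7, and 0 of the 10 lay within 1 log2 unit. In the HP1a line 6 of the 10 did. These tests therefore do not show that an interaction was absent. The KO effect of Tconv with Treg, compared between HP1a and HP1g cells, had a background of 2.72%, with 1 member at an unadjusted p under 0.05, Gbp4 (0.81, 95% interval 0.11 to 1.5). The Treg effect of WT cells, compared between the lines, had a background of 1.56%, with no member at that p. Comparisons of Treg and of naive cells share the same Tconv libraries, and those of genotype and of Treg share groups too, so their values are not independent.

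**Figure D4:**
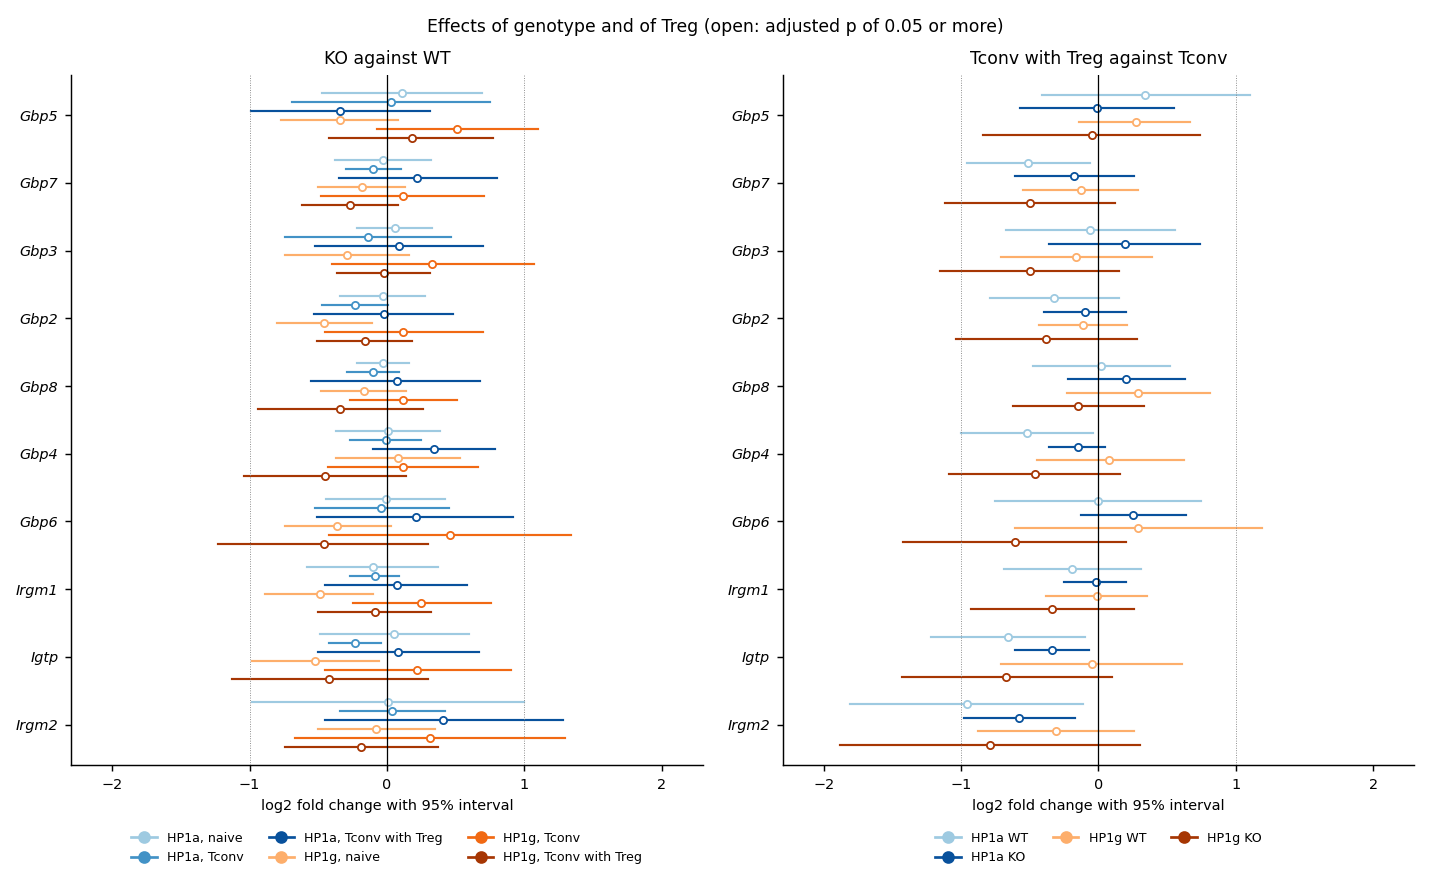
Log2 fold change with its 95% interval (x axis) of each gene between KO and WT cells (left, 3 conditions of 2 lines) and between Tconv with and without Treg (right, 2 genotypes of 2 lines); open points have an adjusted p of 0.05 or more and dotted lines mark a log2 fold change of 1 in either direction. All points are open, and the lowest is Irgm2 in HP1a WT cells with Treg, at -0.96.

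Of the other interferon-inducible GTPases 1 was called with Treg, in HP1a WT cells. Gbp2b, the gene that shares the most 31-base stretches with Gbp2, was at 0.191, 0.0211 and 0.295 CPM in HP1a WT Tconv and at 5.05, 9.93 and 2.36 CPM with Treg (log2 fold change 5.12, SE 0.911, adjusted p = 0.0173 by edgeR's quasi-likelihood test). In replicate 2 of HP1a WT Tconv, 0.0211 CPM lay under the 0.0632 CPM to which 3 counts correspond, so the size of this fold is uncertain. In HP1a KO cells with Treg Gbp2b was at 0.344, 0.472 and 0.695 CPM. The share is 4.26% of those of Gbp2, and its highest level was small beside the 76.1 to 174 CPM of Gbp2 in transferred cells. Ifngr1 fell with Treg in HP1a WT cells, from 773, 622 and 1070 CPM to 166, 166 and 135 CPM (log2 fold change -2.38, SE 0.23, adjusted p = 0.00199), while Ifng had a log2 fold change of -0.07 and Irf1 of 0.07 and did not pass. Irf8 (1.53) and Cxcl10 (1.86) were called higher there, and Cxcl10 also in HP1a KO (1.13). Between HP1a WT Tconv without and with Treg the sum of 5 Treg markers was 351 to 386 and 716 to 944 CPM and that of 10 myeloid markers 7.36 to 8.63 and 26.6 to 74.9 CPM. In the other groups with Treg, the Treg sum was 315 to 490 CPM in HP1a KO, 432 to 509 CPM in HP1g WT and 581 to 1190 CPM in HP1g KO. Gbp2b was at 0.348 to 1.53 CPM in HP1g WT and at 0.87 and 4.13 CPM in HP1g KO with Treg. Within HP1a WT and HP1g WT with Treg, the library with the highest Treg sum had the lowest Gbp2b. In HP1g KO with Treg the library with the higher sum had the higher Gbp2b. The part of these markers in the levels of Gbp2b and Ifngr1 was not tested.

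**Figure D5:**
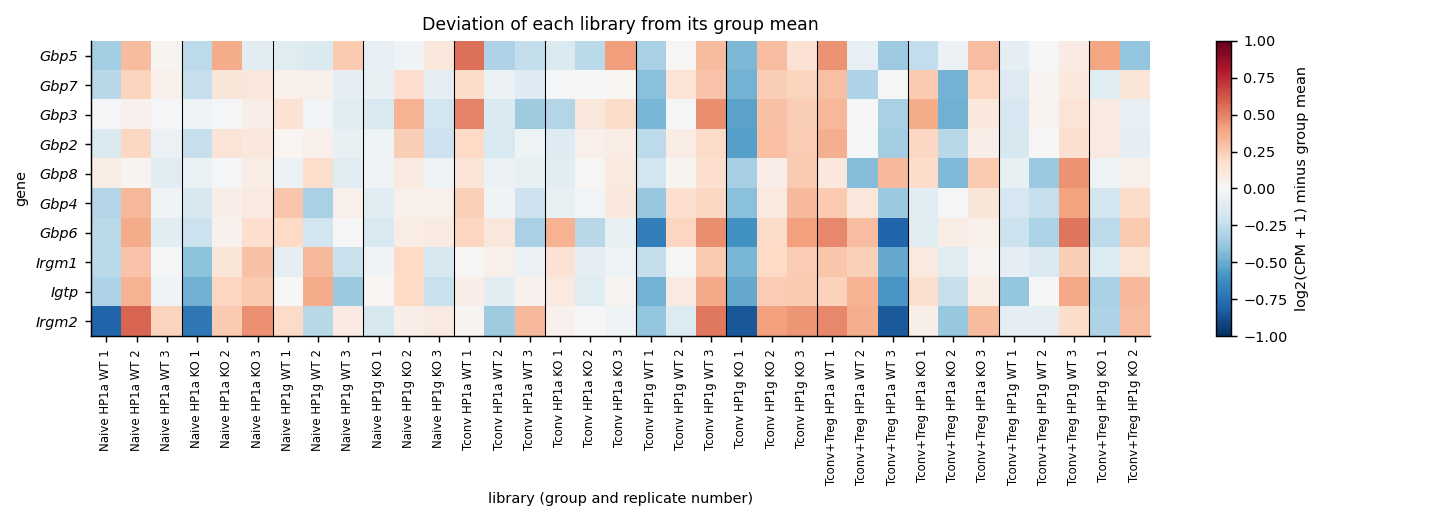
Deviation of each of the 35 libraries (x axis) from the mean of its group for each gene, in log2(CPM + 1), with red above and blue below the mean. Replicate 1 of Tconv in HP1g WT and HP1g KO is below its group for all 10 genes, and replicate 3 of HP1g WT Tconv with Treg is above it for all 10.

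Within groups the members moved together from library to library. Over 35 libraries, after subtraction of each group's mean of log2(CPM + 1), the correlation was positive in all 45 pairs of members, with a median r of 0.636, from 0.212 for Gbp8 and Irgm2 to 0.936 for Irgm1 and Igtp. These are descriptions over libraries that may share batches, which no source names. The libraries also differed in depth and in the summed levels of myeloid, erythroid and Treg markers. Gbp2 followed the mean of the other 9 most closely (r = 0.895) and Gbp8 least (r = 0.426). Without subtraction of the group means Irgm1 and Irgm2 followed the other members weakly, with r of 0.249 and 0.27, against 0.829 and 0.803 within groups.

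Single libraries stood apart for the whole family. Replicate 1 of HP1g WT Tconv was the lowest of its group for 10 of 10 members, by a mean of 0.38 below the group mean on the log2 scale, and replicate 1 of HP1g KO Tconv for 10 of 10, by 0.52. These libraries also had the highest summed level of 6 erythroid markers in their groups, 4960 and 3330 CPM, against 75.7 and 208 CPM in the other WT libraries and 159 and 312 CPM in the other KO libraries, and the WT library also the highest myeloid sum, 318 CPM. In Tconv with Treg the libraries with high erythroid sums, 3480 CPM in replicate 1 of HP1g WT and 6100 CPM in replicate 1 of HP1g KO, deviated by -0.16 and -0.08. Replicate 3 of HP1a WT Tconv with Treg was lowest for 8 of 10 members, by 0.38, and had the highest myeloid sum of its group, 74.9 CPM. Replicate 1 of naive HP1a KO cells was lowest for 10 of 10 members, by 0.28, and replicate 1 of naive HP1a WT cells for 9 of 10, by 0.26, and these had the lowest erythroid sums of their groups, 40.9 and 37.4 CPM. The part of these markers in the levels of the members was not tested. All 6 erythroid markers and all 10 myeloid markers averaged 1 CPM or more in transferred cells, against 4 and 4 in naive cells, and no marker of either list was at 0 in every library. The summed level of the 10 myeloid markers was 6.08 to 13.2 CPM in naive and 7.36 to 589 CPM in transferred cells, and that of 5 Treg markers 84.9 to 161 CPM and 315 to 1190 CPM, so these sums moved with the comparison of Tconv and naive cells. Within HP1a WT cells the myeloid sum was 9.34 to 12.8 CPM in naive cells and 7.36 to 8.63 CPM in Tconv, the erythroid sum 37.4 to 97.9 and 1.80 to 3.44 CPM, and the Treg sum 84.9 to 125 and 351 to 386 CPM.

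The genes most like the members were found by the correlation of log2(CPM + 1) with the mean standardised level of the 10 over 35 libraries, among the 9397 other named genes that averaged 5 CPM or more. They were Zbp1 (r = 0.895), a sensor of nucleic acids that is induced by interferon, Art2b (0.843), an ADP-ribosyltransferase of T cells, Herc6 (0.812), Gimap4 (0.802), a GTPase of lymphocytes, Parp12 (0.785), Atp6v1a (0.784), a subunit of the vacuolar proton pump, Dhx58 (0.783), a helicase that regulates RNA sensing, Crot (0.775), Skp2 (0.771) and Apol10b (0.766). Over the 23 libraries of transferred cells Zbp1 again ranked first, with r of 0.892, and Art2b was the single other gene of the 10 that remained among the first 10. The r values describe a likeness over libraries that differed in condition and depth.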

How the data were processed

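The authors made the RNA-seq libraries with SMART-Seq v4 PLUS (the labels give the molecule as polyA RNA), trimmed the reads, aligned them with STAR to GRCm39 and counted genes with Salmon. What they deposited are estimated counts, unscaled and unfiltered, of which 61.4% were 0 and 55.7% of the rest were exactly whole; Salmon divides reads that match several genes. Whether strand was used is not given in the sources used here, so reads of antisense neighbours cannot be told apart.

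The counts were rounded and fitted with edgeR's quasi-likelihood test (edgeR 4.0.16, R 4.3.3, TMM, filterByExpr, robust) on the libraries of the groups compared, and p-values were adjusted over all genes tested. A call needed an adjusted p under 0.05 and an absolute log2 fold change above 1. Shares of all genes called are those of edgeR's test. Counts of members at an unadjusted p under 0.05 are given without the share of all genes at that p, and no excess is read from them. The scripts were tested on simulated data. Exon lengths and positions came from a GENCODE annotation of GRCm39. Correlations used log2(CPM + 1). Alternatives were DESeq2 1.42.0, RLE size factors, no filter, the adjusted p alone, all libraries of a line, a replicate block, the omitted library put back, and each library left out. Same-numbered libraries correlated above 0.1 in all 3 pairs for naive HP1a KO against WT (0.474 to 0.81) and for the Treg effect in HP1g WT (0.149 to 0.451). No source names a shared batch. The reported fits held no replicate block, so p-values and intervals of these comparisons too treat the libraries as unpaired. The block was fitted as an alternative only. Among HP1g KO Tconv with Treg, replicate 3 was omitted, as the authors did for GC content, exonic share and coverage bias.

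Each of the 10 members is named for Tconv against naive cells, and only some of them in the other comparisons. Ifng, Ifngr1, Ifngr2, Irf1 and Socs1 are given for Tconv against naive cells and elsewhere only in part. By the rule for naming, other listed genes are named only where called, at most 4 per list by the size of change. A further gene named by the rule is not reported here. Members and lists were chosen with earlier results of these data known.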

Additional observations from a re-analysis of the deposited data

Results flagged for a closer look

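In tests of differences between groups, no member passed, but 3 related genes did. For Ifngr1 the KO effect in Tconv with Treg differed between the HP1a and HP1g lines by 1.99 on the log2 scale, and the Treg effect differed between the WT cells of the lines by -2.28 (adjusted p = 0.0289 and 0.00642 by edgeR's quasi-likelihood test). For Gbp2b the KO effects differed by -4.8 (adjusted p = 0.0447), at levels of 0.344 to 9.93 CPM in these groups. For Irf8, a factor of interferon responses, the Treg effects in WT cells differed by 1.83 (adjusted p = 0.0346 by the same test). In these differences between lines, the line and the ratio of Treg given cannot be told apart.

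The library left out of the comparisons, replicate 3 of HP1g KO Tconv with Treg, showed Gbp6 at 353 CPM and Irgm2 at 37.9 CPM, above the 160 to 290 CPM and 23.3 to 28.6 CPM of HP1g WT Tconv with Treg. It was below the WT libraries for the other 8 members, for example Gbp2 at 18.8 CPM against 112 to 140 CPM.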

How the results depend on the processing

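The counts of called members stayed the same or within 1.5 times of those reported in 270 of 276 alternatives. Most of these were in comparisons without a called member, where 0 against 0 counts as the same, so the figure says little about stability. The 6 that moved were all in Tconv against naive cells. No member that passed changed its sign. Without the threshold on the fold change, 4, 4 and 3 members passed for Tconv against naive cells in HP1a WT, HP1a KO and HP1g WT, against 1 each. Leaving out each replicate gave 1 to 2 calls in HP1g WT, Gbp7 being added without replicate 1 of Tconv or replicate 1 or 2 of the naive cells, and 4 to 5 in HP1g KO. With the replicate block, 1 member was called in HP1a WT, HP1a KO and HP1g WT and 4 in HP1g KO, Gbp2 (log2 fold change 1.01) being lost, as with DESeq2, RLE size factors and all libraries of the line. Irgm1 in HP1g WT and Igtp in HP1g KO lost their adjusted p, and no member was called under the block elsewhere. Of the 6 comparisons of KO with WT, the targeted gene was called in 0, in 2 with DESeq2, and in 1 without the filter, with all libraries of the line or with the replicate block. For single members 25 alternatives lost and 14 gained an adjusted p under 0.05. Of the 10 genes most like the members, 2 were kept over transferred cells. The causes were not tested. With 2 or 3 libraries in a group, the intervals reached from -1.88 to 0.74 for the Treg effect in HP1g KO cells, which limits what could be seen there.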
